A study of Mus musculus with 6 samples.

Results

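The genes described here encode 7 subunits of the GABA-A receptor: Gabra2, Gabra3, Gabra4, Gabra5, Gabrb1, Gabrb2 and Gabrg1. They are 7 of 21887 protein-coding mouse genes in the mm10 RefSeq annotation. They were listed by name, but with earlier results of these data known. A peak of estrogen receptor alpha (ERα) was counted for a gene when it lay inside the gene's span, or within 100 kb of it with no other protein-coding gene nearer. By this rule the 6 peak lists held 54 peaks at the 7 genes, which merged into 33 regions of 39374 in all (peaks overlapping or touching across libraries formed 1 region).

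The peaks came from CUT&RUN, in which an antibody brings a nuclease to a chromatin protein in isolated nuclei and the DNA cut free around it is sequenced. The estradiol group had 3 libraries from C57/BL6 male mice given 5 µg estradiol benzoate under the skin 4 h before nuclei were taken. The vehicle group had 3 libraries from males of the same strain given corn oil. All males of both groups had been gonadectomized at 10 to 12 weeks of age, 3 weeks before the injection, so that both groups lacked gonadal hormone beforehand. Nuclei were from limbic tissue, a mixture of cell types of which a minority make ERα. More cells carrying bound ERα and more ERα bound per cell cannot be told apart in such a mixture. Nothing in the labels tells if a group's libraries were from different animals or from pools, and the p-values therefore measure a spread among libraries that may be only technical.

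GABA-A receptors are chloride channels opened by GABA and carry most fast inhibition in the brain. Each channel is a ring of subunits, usually alpha, beta and gamma or delta, and the alpha and gamma types set its place on the neuron and its response to benzodiazepines and to neurosteroids made from progesterone. The genes lie in clusters. Estrogen receptors are ligand-activated transcription factors that bind estrogen response elements or reach DNA through partners such as AP-1 and Sp1, and most of their sites lie away from gene starts.

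Reference sequence of RefSeq starts is shown for the 4 windows that the results turn on, those of Gabrg1, Gabra3 and Gabrb1, which have a peak nearby, and of Gabra2, whose start has none within 1 kb. All 7 genes matched the RefSeq promoter table (build GRCm38.p6, the assembly also named mm10), with 11 annotated starts. Each line gives the 250 bases before the first transcribed base, 5′ to 3′ on the gene's strand. The windows are chr5:70842618-70842867 (minus strand) for Gabrg1, chrX:72656920-72657169 (minus) for the upper start of Gabra3, chr5:71699682-71699931 (plus) for the second start of Gabrb1 and chr5:71095850-71096099 (minus) for Gabra2. Capitals mark the part covered by a peak of vehicle replicate 3 in Gabrb1 and a GGGCGG match in Gabra2.
Gabrg1: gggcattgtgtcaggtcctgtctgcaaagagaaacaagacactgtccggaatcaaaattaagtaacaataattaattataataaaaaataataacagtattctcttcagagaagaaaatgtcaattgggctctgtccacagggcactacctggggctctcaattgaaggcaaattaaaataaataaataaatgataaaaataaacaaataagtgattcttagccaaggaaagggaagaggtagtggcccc
Gabra3 upper start: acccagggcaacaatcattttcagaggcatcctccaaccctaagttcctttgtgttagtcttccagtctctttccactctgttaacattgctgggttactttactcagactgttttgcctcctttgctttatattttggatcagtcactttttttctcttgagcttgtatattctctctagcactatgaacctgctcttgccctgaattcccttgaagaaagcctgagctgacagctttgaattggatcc
Gabrb1 second start: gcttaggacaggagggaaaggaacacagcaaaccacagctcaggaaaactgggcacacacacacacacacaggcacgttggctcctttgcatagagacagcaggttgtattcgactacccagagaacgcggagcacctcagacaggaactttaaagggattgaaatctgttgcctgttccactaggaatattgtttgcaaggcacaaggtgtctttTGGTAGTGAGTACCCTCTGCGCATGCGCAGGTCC
Gabra2: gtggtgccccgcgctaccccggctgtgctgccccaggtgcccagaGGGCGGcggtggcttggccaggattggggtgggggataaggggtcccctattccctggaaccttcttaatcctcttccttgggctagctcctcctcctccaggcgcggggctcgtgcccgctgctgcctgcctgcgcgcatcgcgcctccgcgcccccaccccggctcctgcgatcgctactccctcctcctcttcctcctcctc
Motifs were searched on both strands of all 32851 windows of that table. An estrogen response element, taken as GGTCA and TGACC with any 3 bases between them, was in 0 of the 11 member windows and in 0.0639% of all windows. The single repeat GGTCA was in 3 of 11, those of Gabra5, Gabrb2 and the first start of Gabrb1, against 35.2% of all windows. The AP-1 motif TGANTCA was in 0 of 11, against 6.75%, and the Sp1 motif GGGCGG in 3 of 11, those of Gabra2, Gabra4 and Gabrb2, against 32.7%. The Gabrb1 part in capitals holds GCGCATGCGC, the palindrome that NRF1 recognises, which was looked for only after that sequence had been read and is in 0.782% of all windows. Guanine and cytosine made up 35.6% of the Gabrg1 window and 70.0% of the Gabra2 window, against a median of 52.4% over all windows. A match describes letters, not a bound site, and most regions at these genes lay outside the windows.

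The lists held 11082, 14123 and 17558 peaks in estradiol replicates 1, 2 and 3, against 5421, 13717 and 20541 in vehicle replicates 1, 2 and 3. Peaks were small, with a median of 6 and a minimum of 4 fragments at the summit in each library, so a site near that minimum can be missed by chance in any list. Vehicle replicate 1 had the shortest list and vehicle replicate 3 the longest, so counts are given for every library. Replicate 3 of both groups carries shorter labels and another style of peak name than replicates 1 and 2 and was treated as a batch with 1 library per group. The known estrogen targets Greb1 and Pgr each had 2 estradiol-only regions (a peak in all 3 estradiol lists and in no vehicle list), a class that took 0.737% of all regions. Tissue identity cannot be read from ERα peaks, which do not measure expression: 7 of 7 neuronal, 3 of 4 astrocyte, 4 of 4 oligodendrocyte, 1 of 3 microglial and 2 of 4 liver marker genes had a peak. Over all protein-coding genes, 13494 of 21887 had one.

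At the 7 receptor genes together, estradiol did not separate from vehicle. The genes held 4, 9 and 17 peaks in estradiol replicates 1, 2 and 3, against 3, 8 and 13 in vehicle replicates 1, 2 and 3, a mean of 10.0 ± 6.56 in estradiol and 8.0 ± 5.0 in vehicle (SD, n = 3 each). The groups overlapped, and within each group the count followed the length of the list. Per 1000 peaks of its own list, the share was 0.361, 0.637 and 0.968 in the estradiol libraries and 0.553, 0.583 and 0.633 in the vehicle libraries. The estradiol mean was 0.0656 above that of vehicle, but the difference was -0.0692 within replicates 1 and 2 and 0.335 within replicate 3. In peaks, the difference of the means was 2.0 peaks over all libraries, 1.0 within replicates 1 and 2 and 4.0 within replicate 3.

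**Figure D1:**
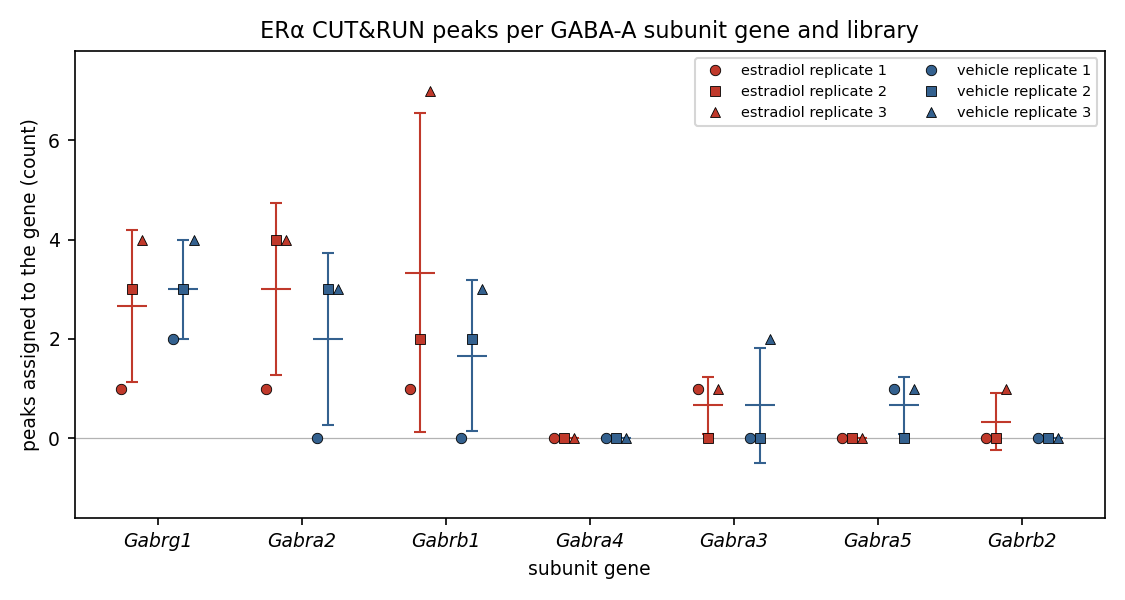
ERα peaks assigned to each of the 7 receptor genes (vertical axis, number of peaks), 1 point per library, with estradiol to the left of vehicle and a bar at each group mean. The points of the groups overlap for every gene, Gabra4 is at 0 in all 6 libraries, and the highest count is the 7 peaks of Gabrb1 in estradiol replicate 3.

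Nearly all of this signal sat in the cluster of Gabrg1, Gabra2, Gabra4 and Gabrb1 on chromosome 5, which held 28 of the 33 regions and 47 of the 54 peaks. Its libraries had 3, 9 and 15 peaks with estradiol, against 2, 8 and 10 with vehicle, or 9.0 ± 6.0 and 6.67 ± 4.16 (SD, n = 3 each). The groups overlapped, and the difference of 2.33 was 1.0 within replicates 1 and 2 and 5.0 within replicate 3. Per 1000 list peaks the values were 0.271, 0.637 and 0.854 in estradiol libraries and 0.369, 0.583 and 0.487 in vehicle libraries.

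**Figure D2:**
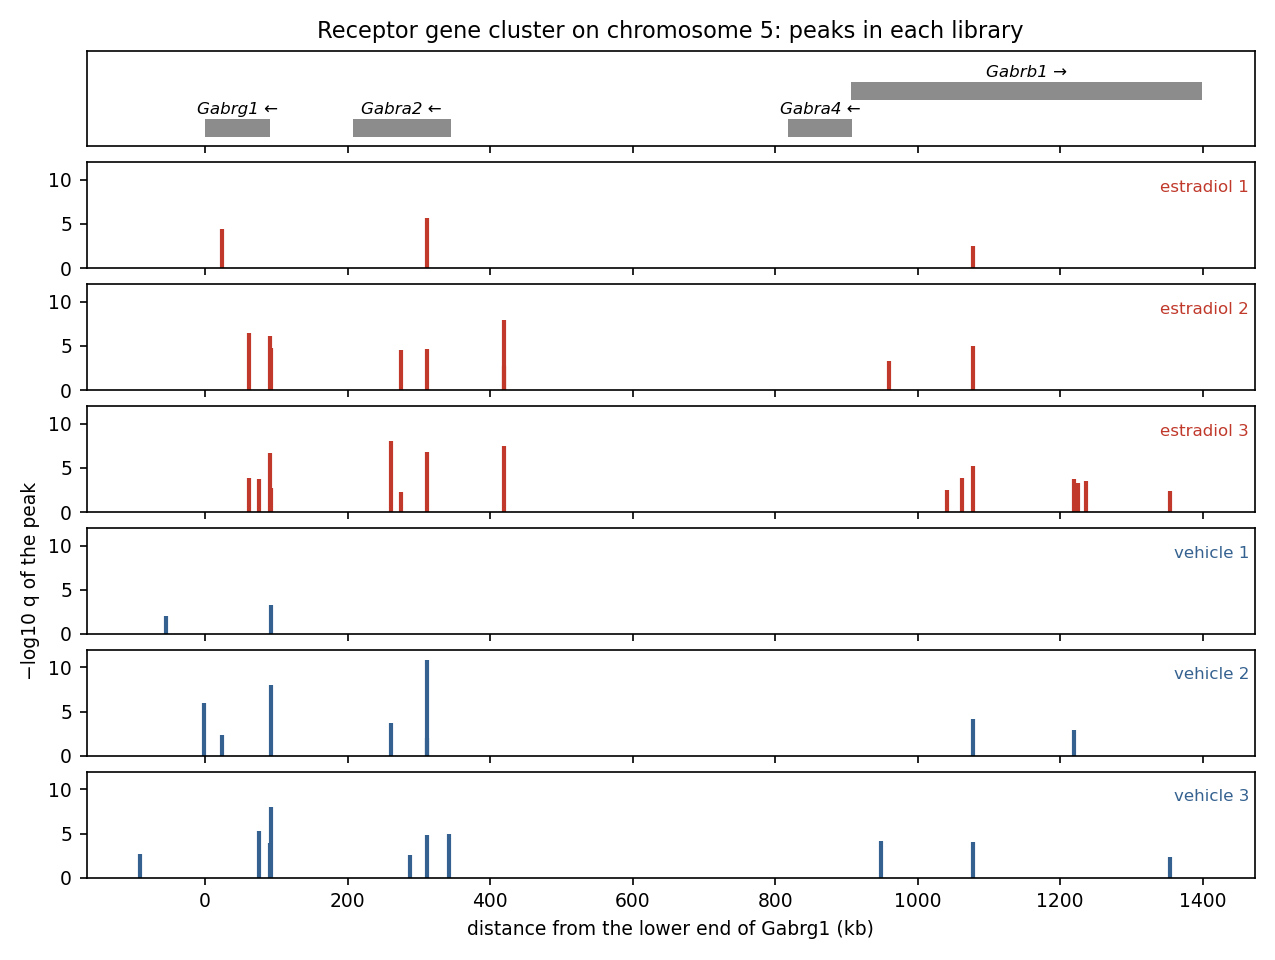
ERα peaks along the chromosome 5 receptor cluster, as distance in kb from the lower end of Gabrg1 (horizontal axis), with 1 panel per library, estradiol panels on top and vehicle panels under them, the height of each line the −log10 q-value of the peak and the gene spans drawn to scale at the top. The peaks lie over Gabrg1, Gabra2 and Gabrb1, and the span of Gabra4 is empty in all 6 panels.

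Gabrg1 encodes the gamma1 subunit, which is enriched in the amygdala and other limbic areas. The gene spans chr5:70751047-70842617 on the minus strand. It had 1, 3 and 4 peaks in the estradiol libraries, against 2, 3 and 4 in the vehicle libraries, so the groups nearly coincided (mean 2.67 ± 1.53 and 3.0 ± 1.0, SD, n = 3 each). Its most widely shared region, chr5:70843231-70843305, lay 614 bp before the gene start and was in 5 of 6 lists. The −log10 q-value the authors gave its peak was 4.73 and 2.69 in estradiol replicates 2 and 3 (6 and 5 fragments), against 3.33, 8.07 and 8.05 in vehicle replicates 1, 2 and 3 (6, 9 and 9 fragments). It was missing from estradiol replicate 1 only. When every list was shortened to its 5421 highest peaks, the region was kept in all 3 vehicle lists and in no estradiol list. That was the pattern of 0.333% of regions under that setting. Vehicle replicate 1 has only 5421 peaks and was not cut, so its peak of 3.33 was kept by construction. The higher peak of estradiol replicate 2, at 4.73, was dropped, so the cutoffs were unlike and the pattern is not read as a difference between groups.

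A second region of Gabrg1, chr5:70842354-70842462, lay 155 bp inside the start. It had −log10 q-values of 6.15 and 6.68 in estradiol replicates 2 and 3, against 3.89 in vehicle replicate 3, with 7, 8 and 6 fragments in these lists. The pair of regions thus stood on either side of the start, the outer one in more vehicle lists and the inner one in more estradiol lists. A region farther in, chr5:70812409-70812511, was 30.1 kb inside the gene and was called in estradiol replicates 2 and 3 only (−log10 q 6.50 and 3.82, 6 and 5 fragments). The other 5 regions of Gabrg1 had a peak in 1 or 2 lists, and 3 of them lay beyond the 3′ end in vehicle lists alone, at 1.75, 55.2 and 91.7 kb. That farthest one, with 4 fragments in vehicle replicate 3, was the last region inside the 100 kb limit, and the next on that side, 159.8 kb away, had 5 fragments in vehicle replicate 1.

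**Figure D3:**
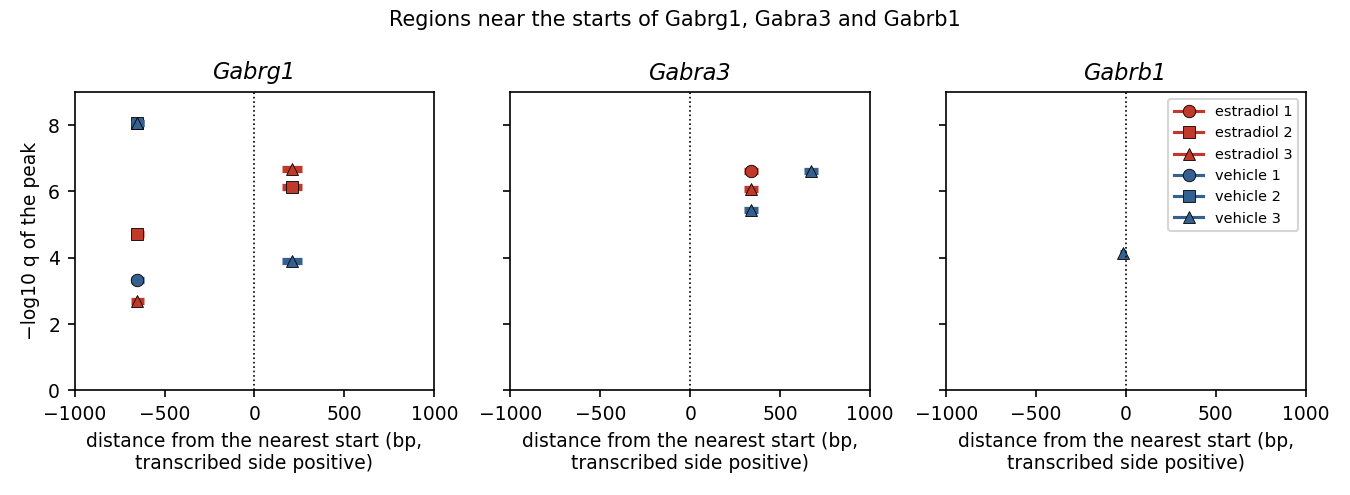
The −log10 q-value of every peak near the starts of Gabrg1, Gabra3 and Gabrb1 (vertical axis) within 1 kb, against the distance of the region's midpoint from the nearest annotated start in bp (horizontal axis, transcribed side positive), 1 point per peak and library, estradiol and vehicle in separate colours. At Gabrg1 the 5 peaks before the start reach 8.07 in vehicle replicate 2, with the 8.05 of vehicle replicate 3 drawn almost over it, and the 3 peaks inside the start reach 6.68 in estradiol replicate 3.

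Gabra2 encodes the alpha2 subunit, found at synapses on the cell body and axon initial segment and tied to the anxiety-reducing action of benzodiazepines. It spans chr5:70958392-71095849 on the minus strand. It had 1, 4 and 4 peaks in the estradiol libraries, against 0, 3 and 3 in the vehicle libraries (3.0 ± 1.73 and 2.0 ± 1.73, SD, n = 3 each). The groups overlapped, with the lowest library of each group at 1 and 0 peaks and the others at 3 or 4.

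The strongest peak at any of the 7 genes was in Gabra2, in a region of 246 bp at chr5:71061797-71062042, 33.8 kb inside the start. This region was in 5 of 6 lists, with −log10 q-values of 5.64, 4.64 and 6.81 in estradiol replicates 1, 2 and 3 (8, 6 and 9 fragments), against 10.9 and 4.89 in vehicle replicates 2 and 3 (12 and 7 fragments). The groups overlapped, with the highest value in vehicle replicate 2 and the lowest called value in estradiol replicate 2, and the list without it was the shortest one, vehicle replicate 1. A region 74.4 kb before the start, chr5:71170289-71170447, was called in estradiol replicates 2 and 3 only, with −log10 q-values of 7.91 and 7.47 and 9 fragments each. The other 8 regions of Gabra2 had a peak in 1 list each. The nearest to the start, at chr5:71093997-71094058, lay 1.79 kb inside it and was in vehicle replicate 3 only (−log10 q 4.90).

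Gabrb1 encodes the beta1 subunit; beta subunits form the GABA site together with an alpha subunit. It spans 492 kb at chr5:71657921-72149572 on the plus strand and is the longest of the 7 genes. It had 1, 2 and 7 peaks in the estradiol libraries, against 0, 2 and 3 in the vehicle libraries (3.33 ± 3.21 and 1.67 ± 1.53, SD, n = 3 each). The difference of 1.67 rested on estradiol replicate 3: within replicates 1 and 2 it was 0.5, and without that library it turned to -0.167. The peaks of estradiol replicate 3 were low, and 5 of the 7 lay in regions called in no other list, with 4 to 6 fragments each.

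The most shared region of Gabrb1, chr5:71829148-71829240, was 129 kb from the nearest start and in 5 of 6 lists. Its −log10 q-values were 2.56, 5.01 and 5.26 in estradiol replicates 1, 2 and 3 (4, 5 and 6 fragments), against 4.18 and 4.04 in vehicle replicates 2 and 3 (5 fragments each). The groups again overlapped, with vehicle replicate 1 the list without a peak. The region of 36 bp at chr5:71699898-71699933, whose sequence is shown in capitals, touched the second annotated start and was in vehicle replicate 3 only (−log10 q 4.15, 6 fragments).

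Gabra4 encodes the alpha4 subunit, which pairs with delta in receptors outside synapses that respond to neurosteroids. It had no peak in any of the 6 lists, at chr5:71569734-71658308 on the minus strand or in the flank assigned to it, 99.3 kb in all. Its start faces that of Gabrb1, and the annotated spans overlap by 388 bp. No region lay within 1 kb of either of these facing starts. In all, 38.3% of protein-coding genes were without a peak.

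The remaining 3 genes stand outside the chromosome 5 cluster and carried 7 of the 54 peaks. Gabra3, on the X chromosome at chrX:72432676-72656919 (minus strand), encodes the alpha3 subunit, prominent in monoaminergic and some amygdala neurons. It had 1, 0 and 1 peaks in the estradiol libraries, against 0, 0 and 2 in the vehicle libraries, all within 1 kb of its starts. The region chrX:72656431-72656506 lay 301 bp inside the nearest start, the lower one, and 413 bp inside the upper start whose window is shown. Its −log10 q-values were 6.62 and 6.07 in estradiol replicates 1 and 3, against 5.43 in vehicle replicate 3 (7, 8 and 8 fragments). A neighbouring region at chrX:72656098-72656175 was in vehicle replicate 3 alone (6.62, 9 fragments).

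Gabra5, at chr7:57407669-57591016 on the minus strand, encodes the alpha5 subunit of extrasynaptic receptors, abundant in the hippocampus. It had no peak in the 3 estradiol libraries, against 1, 0 and 1 in the vehicle libraries. The higher of its regions, chr7:57478554-57478634, had 7 fragments in vehicle replicate 3. Gabrb2, at chr11:42419515-42632591 on the plus strand, encodes the beta2 subunit of the commonest receptor type. It had 1 peak in estradiol replicate 3, 112 kb from its nearest start with 5 fragments, against none in the vehicle libraries. The next region beyond its 3′ end, at 143 kb and so outside the limit, was in estradiol replicates 1 and 3 and vehicle replicates 2 and 3.

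With 3 libraries per group, the per-gene test could not have separated any gene at a threshold of 0.05. In an exact two-sided permutation test over the 20 possible assignments of the libraries to the groups, whose smallest possible p is 0.1, the p-value was 0.4 for Gabra5, 0.5 for Gabra2, 0.7 for Gabrb1 and 1.0 for Gabrg1, Gabra3 and Gabrb2. After Benjamini-Hochberg adjustment over all 13494 genes with a peak, the exact permutation p was 1.0 for each. Before adjustment 0 of these 13494 genes had an exact permutation p under 0.05, so nothing is read from these values about the receptor genes. In 0 of the 7 genes did every estradiol count exceed every vehicle count, a pattern of 1.03% of the 13494 genes, and in 0 did every vehicle count exceed every estradiol count, a pattern of 0.333%. At shares this low, a count of 0 among 7 genes cannot separate them from the rest. The median difference between the group means was 0 peaks over the 7 receptor genes, with Gabra4 counted at 0, and 0 over all genes with a peak.

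The 33 regions were also classed by the lists that held them. None was estradiol-only, a class of 0.737% of all regions. A count of 0 of 33 allows a share of up to 10.6% (95% exact binomial upper bound), so it cannot separate these genes from the rest. None was vehicle-only, a class of 0.112% of all regions and found at 0.326% of genes with a peak, and none was in all 6 lists, a class of 7.27%. There were 3 regions in 5 lists, the ones described at Gabrg1, Gabra2 and Gabrb1, which made 9.09% against 5.77% of all regions. A peak in 2 of 3 estradiol lists and no vehicle list was found for 2 regions (6.06%), the ones at 30.1 kb inside Gabrg1 and 74.4 kb before Gabra2, against 2.97% of all regions. Both are estradiol-only when estradiol replicate 1 is left out, under which 2.7% of all regions are. The reverse was found for none, against 2.49%. The 95% exact binomial intervals of 1.92 to 24.3% for the 3 regions and 0.743 to 20.2% for the 2 regions include the shares over all regions. All such intervals cover counting error only.

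Most regions were seen in a single list: 23 of 33, or 69.7% (95% exact binomial interval 51.3 to 84.4%), against 58.9% of all regions. Of these, 11 were in an estradiol list and 12 in a vehicle list, or 33.3% and 36.4% of the 33, against 29.4% and 29.5% of all regions. Estradiol replicates 1, 2 and 3 had 0, 3 and 8 of them, and vehicle replicates 1, 2 and 3 had 2, 4 and 6. Counting the shared ones, 13 regions were in estradiol lists alone, 12 in vehicle lists alone and 8 in both. These made 39.4%, 36.4% and 24.2% of the 33, against 33.1%, 32.1% and 34.8% of all regions.

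**Figure D4:**
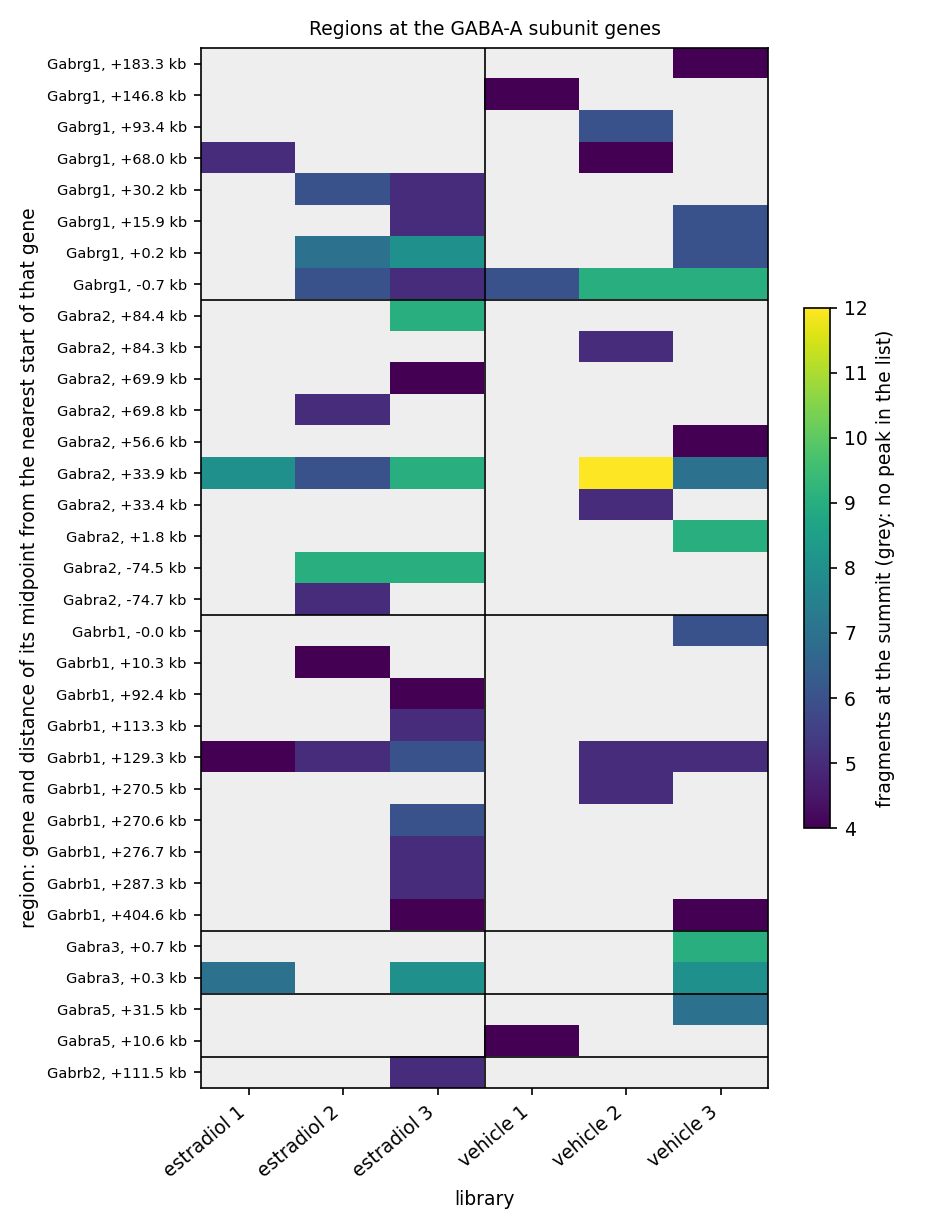
The 33 regions at the receptor genes (rows, grouped by gene) in the 6 libraries (columns, estradiol left of vehicle), coloured by the fragments at the peak summit and grey where the list has no peak. Rows are named by the distance of the region's midpoint from the gene's nearest start. No row is coloured in all 3 columns of a group and grey in all of the other, and 3 rows are coloured in 5 of 6 columns.

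Pooled over the 6 lists, peaks at the receptor genes had a median of 5.5 summit fragments and a maximum of 12, against 6 and 227 over all peaks. Their median −log10 q was 4.17 with a maximum of 10.9, against 4.46 and 419 over all peaks. Of the 54 peaks 68.5% had fewer than 7 fragments, against 55.8% of all. Within single lists the order varied: the receptor genes' peaks had a median of 5.04, 4.73 and 3.71 on the −log10 q scale in the estradiol libraries, where the whole lists had 4.38, 4.88 and 4.27. They had 2.02, 3.93 and 4.89 in the vehicle libraries, where the whole lists had 3.86, 4.46 and 4.72. The receptor genes' median was thus above that of the list in estradiol replicate 1 and vehicle replicate 3 and below it in the other 4. Within 1 kb of an annotated start lay 5 of the 33 regions, 15.2% (95% exact binomial interval 5.11 to 31.9%), against 23.4% of all regions, so this interval includes the background. These 5 were 2 at Gabrg1, 2 at Gabra3 and 1 at Gabrb1, and 27 of the 33 regions lay inside gene spans.

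Set per length of assigned DNA, the receptor genes differed widely among themselves. Over the 6 libraries the density averaged 11.4 peaks per Mb and library at Gabrg1, 8.46 at Gabra2 and 5.05 at Gabrb1. It was 2.01 at Gabra3, 1.72 at Gabra5, 0.460 at Gabrb2 and 0 at Gabra4. The average over all gene territory was 6.73 in estradiol and 6.35 in vehicle libraries, or 6.54 over all libraries, and Gabrg1 and Gabra2 had more than this while the other 5 had less. In estradiol libraries alone, Gabrb1 was level with it at 6.73. Among the 2278 genes with at least 200 kb of assigned DNA the median was 2.95, and of the 5 receptor genes of that size Gabrg1, Gabra2 and Gabrb1 were above it and Gabra3 and Gabrb2 below. Gabrg1 had 10.7 ± 6.12 in estradiol and 12.0 ± 4.01 in vehicle libraries (SD, n = 3 each), and neighbours in this order overlapped in their libraries. Among the 19 GABA-A subunit genes of the annotation, Gabrg1 and Gabra2 ranked first and second.

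**Figure D5:**
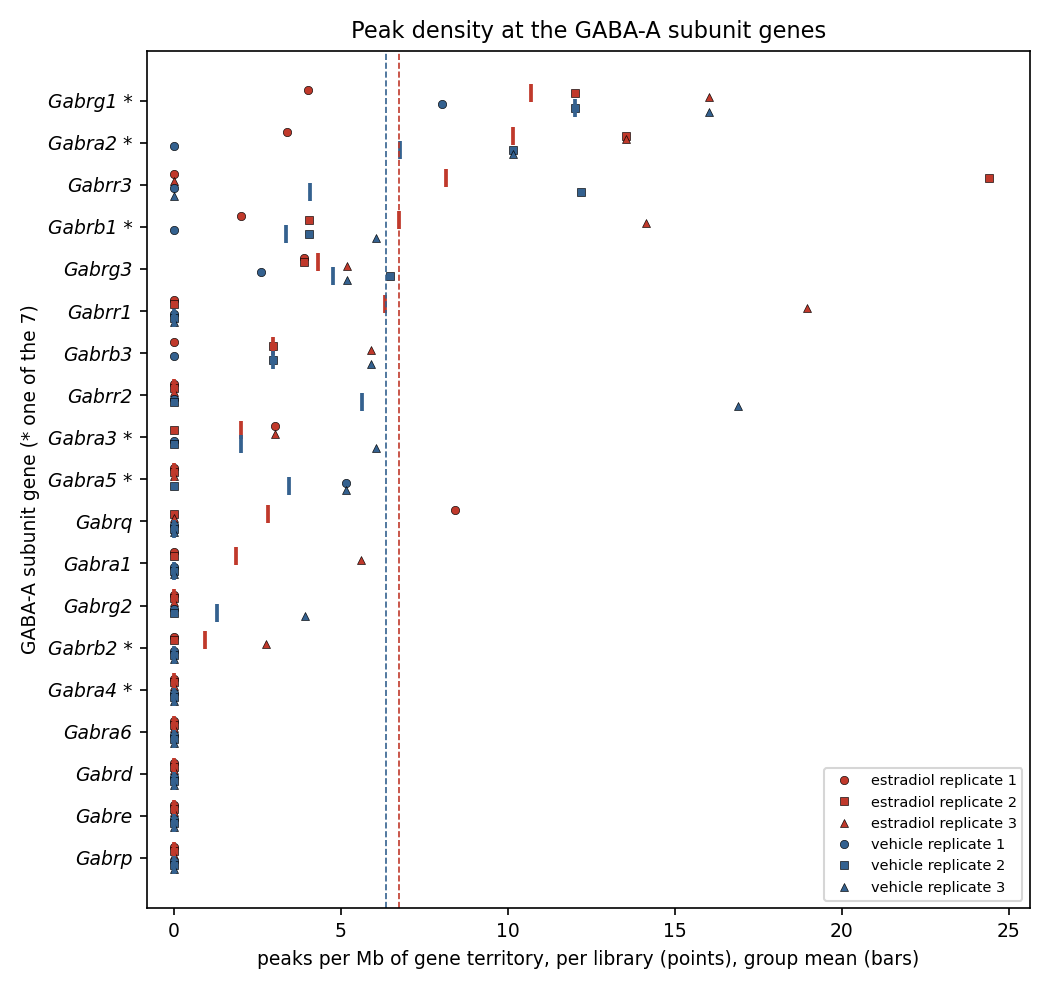
ERα peaks per Mb of assigned DNA (horizontal axis) for the GABA-A subunit genes (rows), 1 point per library, with estradiol drawn above vehicle within each row, short bars at the group means and dashed lines at the average of all gene territory in each group (6.73 and 6.35). Of the 7 genes described, marked with a star, Gabrg1 and Gabra2 have the highest means and Gabra4 is at 0 in every library.

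The other 12 subunit genes held 20 regions, with 4, 6 and 8 peaks in estradiol libraries against 2, 7 and 8 in vehicle libraries. Of these 12 genes 8 had a peak, against 13494 of all 21887 protein-coding genes. The single estradiol-only region among the 20 was in Gabrg3, which encodes the gamma3 subunit and lies beside Gabra5 on chromosome 7. It was chr7:57246790-57246883, 161 kb from Gabra5, with −log10 q-values of 4.18, 9.70 and 10.4 in the estradiol libraries (6, 10 and 11 fragments), against no peak in the 3 vehicle libraries. Genes with at least 1 estradiol-only region made up 1.77% of genes with a peak. Gabrg3 as a whole had 3, 3 and 4 peaks with estradiol, against 2, 5 and 4 with vehicle.

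In the rest of the GABA pathway, a peak was found at 14 of 16 receptor scaffold and trafficking genes, 5 of 5 GABA-B receptor genes, 8 of 8 genes of GABA synthesis, transport and breakdown and 2 of 2 chloride transporter genes. None of these 4 lists had an estradiol-only or a vehicle-only region, found at 1.77% and 0.326% of genes with a peak. Over all protein-coding genes, 13494 of 21887 had a peak, and 1918 of the 2278 with at least 200 kb of assigned DNA did. Of the neurosteroid synthesis genes 4 of 6 had a peak, and Akr1c14, the 3α-hydroxysteroid dehydrogenase that makes allopregnanolone, a positive modulator of GABA-A receptors, had an estradiol-only region. It lay at chr13:4047116-4047314, 1.68 kb beyond the lower end of the gene's span, with −log10 q-values of 2.32, 5.23 and 4.90 (4, 6 and 6 fragments). Akr1c14 had 2, 1 and 1 peaks with estradiol, against 0 in each vehicle library. Among 13 genes of these lists and of the other subunits with at least 10 peaks, the profile over the 6 libraries (each as a percentage of the gene's peaks) was nearest to that of the chromosome 5 cluster for Slitrk3, a postsynaptic adhesion protein. Its summed difference was 30.4 percentage points, with 2, 2 and 4 peaks in the estradiol libraries, against 0, 2 and 4 in the vehicle libraries. The profile of all genes with a peak lay nearer still to the cluster, at 26.6 percentage points, so this likeness is nothing particular to Slitrk3.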

How the data were processed

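The 6 deposited peak lists, 1 per library, were used. Per the submitters' processing notes, the authors used cutadapt, Bowtie2, Picard, SAMtools, deepTools and MACS2 (no versions or roles) on mm10. The peak names carry a q-value of 0.01. Use of a control library in peak calling is not stated.

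Per the layout of the deposited lists, each peak has an integer score, a fold enrichment (a ratio to local background), a −log10 p-value and a −log10 q-value. The score equals 10 times −log10 q rounded down. These are the authors' values and were used only to describe or filter peaks within a list. Summit fragments were worked out here from fold and p-value under a Poisson tail with a pseudocount of 1, matching −log10 p within 0.0002. Read depth is not given by such lists.

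Peaks were assigned to genes with the RefSeq table (GRCm38.p6) and merged across libraries at a 1 bp overlap. Counts per gene were tested by an exact two-sided permutation test over libraries, adjusted by the Benjamini-Hochberg method over all genes with a peak, using Python 3.11.15, NumPy 2.4.6, pandas 2.3.3, SciPy 1.17.1 and matplotlib 3.10.9. The scripts were tested on simulated data. Named were all 7 genes, regions in 5 or 6 lists, at a start, highest per gene, or in 1 group only, and list genes with such a region or a near profile; not every gene so named is reported here. Alternatives are in the closing section. The receptor genes and lists were chosen with earlier results of these data known.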

Additional observations from a re-analysis of the deposited data

How the results depend on the processing

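The count of receptor genes whose libraries did not overlap was 0, and 0 to 1 with 1 library left out (Gabra2 without estradiol replicate 1, Gabra5 without vehicle replicate 2). With replicate 3 only, 1 library a group, it was 5, where any unequal counts score as not overlapping. Estradiol-only regions numbered 0, and 0 to 2 with 1 library left out, the 2 being the Gabrg1 and Gabra2 regions absent from estradiol replicate 1, when such regions made 2.7% of all. With replicate 3 only, estradiol-only regions were 10, against 6 vehicle-only regions. With 1 library a group any region held by a single list falls in such a class. The share over all regions is not given for that setting, so nothing is read from these counts. Vehicle-only regions numbered 0, and 1 with lists of equal length, a setting that leaves vehicle replicate 1 uncut. The difference over the 7 genes, 2.0 peaks, was 1.0 to 2.67 under the other settings for all libraries and -1.5 to 5.0 with 1 library left out; -1.5 was without estradiol replicate 3 and -0.5 without vehicle replicate 1. Per 1000 list peaks it was 0.0656, -0.0907 without estradiol replicate 3 and 0.335 with replicate 3 only. With 1 library left out the difference ran from -1.0 to 0.5 at Gabrg1 and from -0.167 to 2.83 at Gabrb1. At Gabrg1 the difference of -0.333 turned to 0.333 at −log10 q of 3 or more, 1.0 inside the span, 0.5 without estradiol replicate 1 and 0.167 without vehicle replicate 3; at Gabrb1 it turned to -0.167 without estradiol replicate 3. The cause was not tested. Same-numbered libraries deviated together with correlations of -0.0670, 0.0374 and 0.0745 for replicates 1, 2 and 3. Libraries of different numbers gave -0.0902 to 0.0545. Such weak values over so few libraries cannot settle if the numbers pair the samples. With the replicate number as a block the total differed by 2.0 peaks. Under it, 2 regions had a peak in the estradiol library alone in at least 2 of 3 pairs and never in the vehicle library alone. The share of all regions with that pattern is not given. With a median of 6 fragments a peak, a missing peak is weak evidence of absence.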

Other observations

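Several regions of the receptor genes lay close together without touching. There were 6 such pairs with a gap of at most 500 bp: 4 at Gabra2, 1 at Gabrb1 and 1 at Gabra3, with gaps of 17 to 347 bp. In 3 of the pairs the regions were called in different libraries, and in the other 3 they shared a library. At Gabra2, chr5:71011375-71011523 was in estradiol replicate 3 and chr5:71011541-71011578, 17 bp away, in vehicle replicate 2. Joining these pairs left 27 regions and gave 3 regions in 2 of 3 estradiol lists and no vehicle list, in place of 2. The share of all regions in that class under such joining is not given, so nothing is read from this change.

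Beyond the territories of the receptor genes, chr5:71341669-71341731 lay between Gabra2 and Cox7b2, over 100 kb from any protein-coding gene. It was called in vehicle replicates 2 and 3 only, with −log10 q-values of 4.46 and 4.09 and 5 fragments each. On the far side of Gabrb1, chr5:72168156-72168292 overlapped the span of Commd8. Its −log10 q-values were 3.26, 6.73 and 9.08 in estradiol replicates 1, 2 and 3, against 8.39 and 3.89 in vehicle replicates 2 and 3. In the lists of the GABA pathway, 2 genes had more peaks in every vehicle library than in every estradiol library. They were 1 of 5 GABA-B receptor genes and 1 of 2 chloride transporter genes. None was among the 16 scaffold and trafficking, 8 synthesis, transport and breakdown or 6 neurosteroid genes. This pattern was held by 0.333% of genes with a peak. The reverse, held by 1.03%, was found at Akr1c14 alone. The 2 genes are named after their values were seen. Kctd8, an auxiliary subunit of GABA-B receptors, had no peak in the 3 estradiol libraries, against 1, 1 and 2 in the vehicle libraries. Slc12a2, the chloride importer NKCC1, had no peak in the 3 estradiol libraries, against 1 in each vehicle library. Neither gene had a vehicle-only region.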
